A study of Mus musculus with 6 samples.

Results

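The 10 endothelial marker genes described here were followed across libraries of sorted pancreatic acinar cells, to see how much RNA of blood vessel cells each sort held. The members were named by symbol (Pecam1, Cdh5, Kdr, Flt1, Tek, Tie1, Eng, Emcn, Egfl7 and Esam), all 10 were found among the 21949 genes of the deposited table, and the rule itself uses no measured value, although the genes were proposed with earlier results of these data known. The series has 6 bulk RNA libraries, 3 after cerulein and 3 controls. All mice were adults on a CD1-enriched background carrying ElastaseCreER and ROSA26YFP, a Cre driven by the acinar elastase promoter with a fluorescent reporter, and the cells were sorted by flow cytometry from digested pancreas. Cerulein, an analogue of the hormone cholecystokinin, drives acinar cells to over-secrete and is the usual way to cause pancreatitis in mice. Cerulein mice had 7 injections on each treatment day, given on alternate days within 3 days, and then 1 day to recover, while the control libraries are labelled only as WT. The injected dose carries a unit that cannot be right and was not used. The labels do not say whether the numbered libraries came from separate mice, so a p-value here reflects only how these libraries vary, and that variation may be technical. Libraries are named here by group and by their labelled number, so that control library 1 is the one titled WT (n=1).

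Endothelial cells line blood vessels and are held together by junction proteins such as VE-cadherin. They sense VEGF and angiopoietins through receptor tyrosine kinases, and they use endoglin to modulate signals of the TGF-beta and BMP family. The exocrine pancreas has a dense capillary bed around its acini, and acinar cells themselves are not known for these genes. Pecam1 and Eng are also known from some leukocytes, and Eng from stromal cells, so that neither marks endothelium alone.

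RefSeq's promoter table (GRCm38.p6, 250 bases before to 50 bases after each start) held 7 of the 10 genes, and 4 of its windows are printed here as examples. Each of these 4 genes had its highest level in control library 1, as did 8 of the 10 genes in all. Eng (chr2:32646345-32646644, plus strand) had the highest level of the 10, Emcn (chr3:137340828-137341127, plus strand) was above 0 in control library 1 alone, Tek (chr4:94739039-94739338, plus strand) had its highest level there, and Kdr (chr5:75978406-75978705, minus strand) was present in 5 of 6 libraries. Sequences run 5′ to 3′ on the strand of the gene, and capitals mark CAGGAA or CCGGAA on either strand, letters of the binding core of ETS factors, which are known regulators of endothelial genes.
Eng: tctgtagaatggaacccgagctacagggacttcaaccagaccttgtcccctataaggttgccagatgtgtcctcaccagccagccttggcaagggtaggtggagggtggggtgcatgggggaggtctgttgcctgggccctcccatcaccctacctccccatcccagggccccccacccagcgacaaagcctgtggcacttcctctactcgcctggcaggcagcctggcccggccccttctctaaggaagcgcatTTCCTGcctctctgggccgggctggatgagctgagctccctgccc
Emcn: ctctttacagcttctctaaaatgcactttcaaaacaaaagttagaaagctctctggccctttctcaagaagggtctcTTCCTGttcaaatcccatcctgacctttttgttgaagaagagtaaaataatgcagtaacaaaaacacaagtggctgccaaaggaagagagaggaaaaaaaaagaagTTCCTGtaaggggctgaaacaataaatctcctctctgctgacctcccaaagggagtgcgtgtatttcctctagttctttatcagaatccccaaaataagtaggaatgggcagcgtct
Tek: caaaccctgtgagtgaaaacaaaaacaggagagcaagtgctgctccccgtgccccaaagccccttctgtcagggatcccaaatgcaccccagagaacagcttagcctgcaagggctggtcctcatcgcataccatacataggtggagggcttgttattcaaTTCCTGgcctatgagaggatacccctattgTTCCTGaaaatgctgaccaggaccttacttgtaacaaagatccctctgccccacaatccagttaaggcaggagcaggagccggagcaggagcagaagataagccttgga
Kdr: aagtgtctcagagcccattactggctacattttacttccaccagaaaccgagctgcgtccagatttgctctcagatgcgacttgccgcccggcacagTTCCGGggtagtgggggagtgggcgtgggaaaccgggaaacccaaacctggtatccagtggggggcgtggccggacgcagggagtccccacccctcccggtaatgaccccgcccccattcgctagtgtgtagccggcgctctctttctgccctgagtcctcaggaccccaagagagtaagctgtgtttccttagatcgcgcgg
CAGGAA stood in the windows of 5 of the 7 genes (Egfl7, Eng, Emcn, Tek and Tie1) and in 30.4% of 27025 promoters of the same length. CCGGAA stood in 1 of the 7, Kdr, and in 15.2% of all promoters. One or the other was found in 6 of the 7, with Flt1 as the exception, against 41.4% of all promoters. The GATA letters AGATAA stood in the window of Tek alone and in 11.4% of promoters, and the SOX letters ACAAT in those of Emcn and Tek and in 31.6% of promoters. The E-box CAGCTG stood in the window of Egfl7 and in 16.1% of promoters. Both strands were read, and CAGGAA and CCGGAA share the letters GGAA but cannot both match at 1 position of a strand. CpG pairs numbered from 2 in the Emcn window to 29 in that of Flt1, with a median of 6, against 7 over all promoters. A match describes letters and shows no binding.

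The values are FPKM (fragments divided by the effective length of the transcript and by the total of the library), summed over the transcripts of a gene. Part of the deposited values had lost their decimal mark in a spreadsheet. They were restored from the whole number of fragments that each FPKM stands for, with weight given to agreement within the group. A fragment number can therefore be given beside each level. For a transcript of 2000 bases, each FPKM corresponded to between 23.1 and 34.0 fragments in the cerulein libraries and between 6.45 and 8.09 fragments in the controls. Low levels were for that reason measured less precisely in the controls. In what follows, the level of 3 fragments is given as the limit that a count of 0 allows, and such limits cover counting error only. Acinar identity was plain in all 6 libraries, with summed levels of 9 acinar markers of 36860 to 68198 FPKM in the cerulein and 250530 to 274611 FPKM in the control libraries.

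The 10 genes were at low levels throughout, with 1 library far above the rest. Their levels summed to 5.16, 4.998 and 4.12 FPKM in cerulein libraries 1, 2 and 3, against 22.2, 0.272 and 0 FPKM in control libraries 1, 2 and 3. Of the 6, control library 1 was thus the highest and its fellow controls were the lowest, with the cerulein libraries between them and close together. These sums rested on 178, 265 and 238 fragments in the cerulein libraries and on 234, 6 and 0 fragments in the controls. Per 1000000 fragments of the library total, that was 14.0 (exact 95% Poisson interval 12.03 to 16.2), 16.4 (14.5 to 18.5) and 12.6 (11.01 to 14.3) in the cerulein libraries. In control library 1 it was 66.8 (58.5 to 76.0), in control library 2 it was 1.48 (0.542 to 3.21), and in control library 3 it was 0 (0 to 0.826). The interval of control library 1 lay above all others, and the intervals of control libraries 2 and 3 lay below those of every cerulein library, but such intervals cover counting error only and not the variation between libraries. In bulk RNA, fewer cells of a type and less RNA per cell cannot be told apart.

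**Figure D1:**
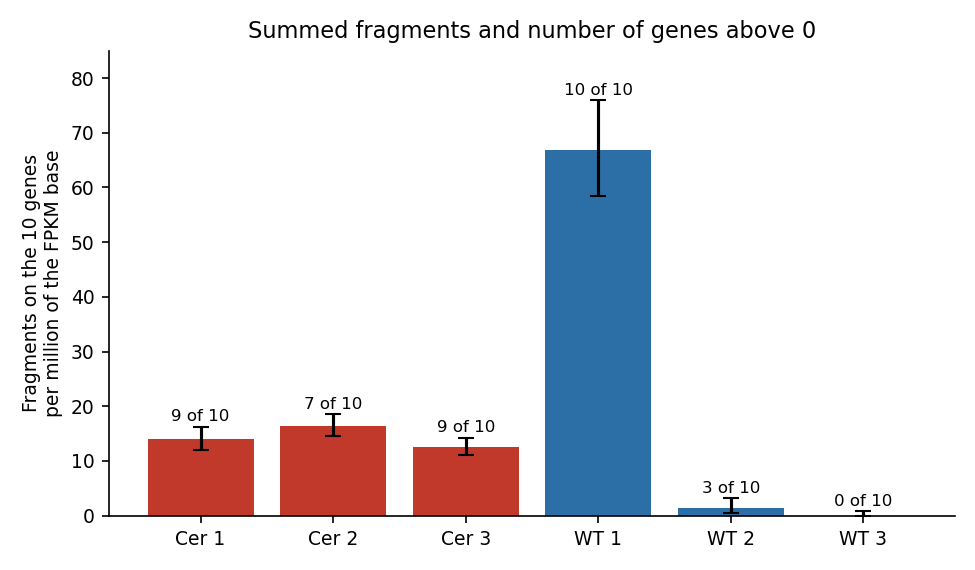
Fragments assigned to the 10 endothelial marker genes per 1000000 fragments of each library's total (y axis), for 3 cerulein libraries (Cer, red) and 3 control libraries (WT, blue). Error bars are exact 95% Poisson intervals of the summed fragments, and the text over each bar is the number of the 10 genes above 0. WT 1 stands at 66.8, the cerulein libraries between 12.6 and 16.4, and WT 2 and WT 3 at 1.48 and 0.

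The number of genes detected ran the same way. In all, 9, 7 and 9 of the 10 genes were above 0 in cerulein libraries 1, 2 and 3, against 10, 3 and 0 in control libraries 1, 2 and 3. Of the 60 values, 22 were 0 and 8 reached 1 FPKM. Control library 1 was above every cerulein library for 8 of the 10 genes, all but Pecam1 and Egfl7, and 35.3% of the 13783 genes with a known level in every library and above 0 in some had that order. Each cerulein library was above both control libraries 2 and 3 for 7 of the 10, against 30.1% of those genes. As many as 7 of the 10 were at 0 in control libraries 2 and 3 but not in control library 1, a pattern held by 12.4% of those genes. No gene of the 10 kept the 3 cerulein libraries apart from the 3 controls.

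**Figure D2:**
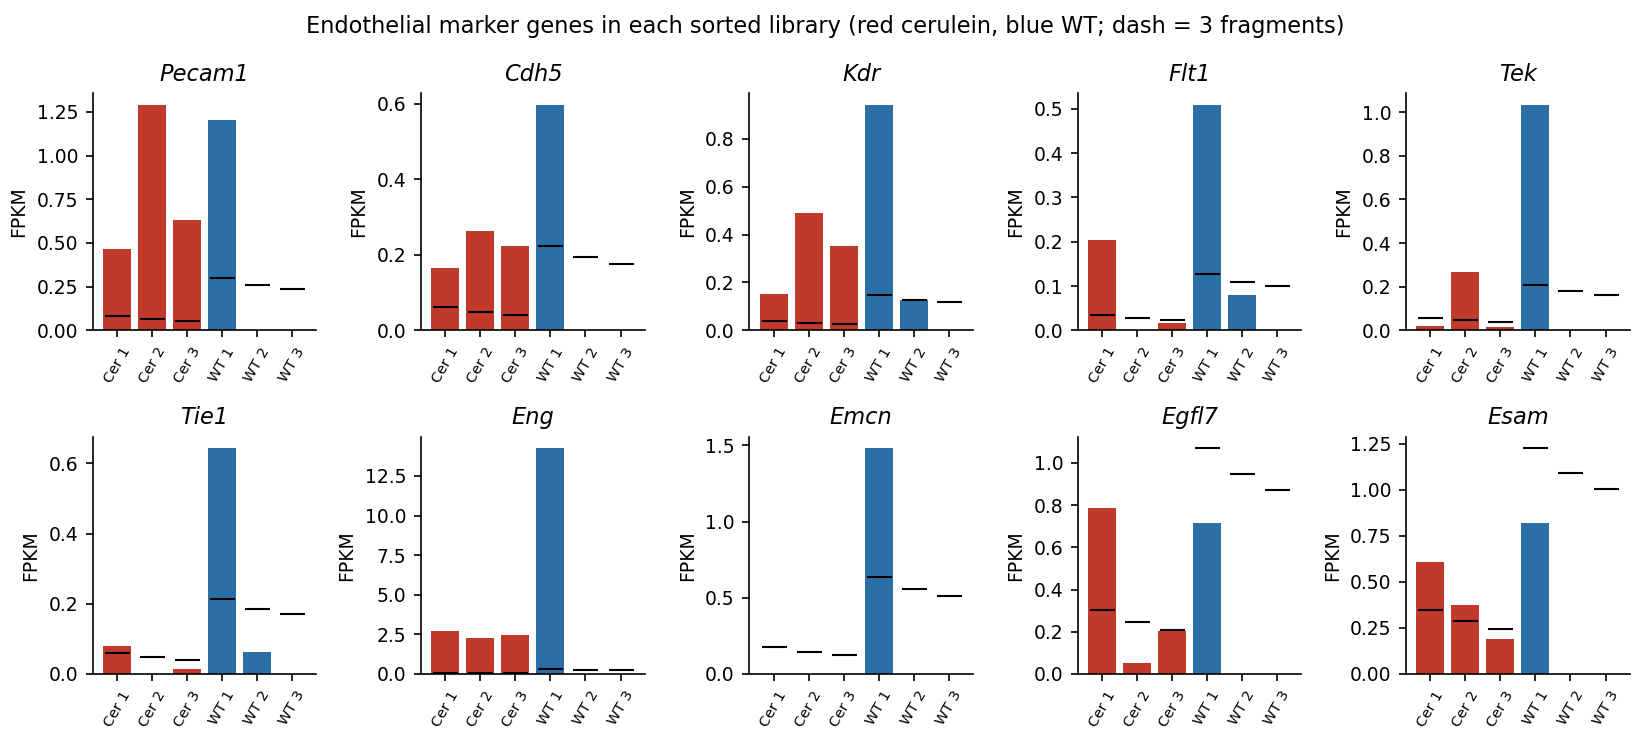
FPKM of each gene in each library (y axis, its own scale per panel) for cerulein (Cer, red, left) and control (WT, blue, right) libraries. Black dashes mark the level that 3 fragments would give for that gene in that library. The tallest bar is WT 1 in 8 panels, and WT 3 has no bar in any.

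Pecam1 (chromosome 11, 106654217 to 106750628) and Cdh5 (chromosome 8, 104101625 to 104144511) encode the adhesion molecules CD31 and VE-cadherin of endothelial junctions. Pecam1 had 0.465, 1.29 and 0.629 FPKM in cerulein libraries 1, 2 and 3, against 1.20, 0 and 0 FPKM in control libraries 1, 2 and 3. Those values stood for 16, 63 and 36 fragments after cerulein and for 12 in control library 1. Cerulein library 2 and control library 1 were the highest and nearly level, and a count of 0 allowed up to 0.261 FPKM in control library 2, under every cerulein value. Cdh5 had 0.165, 0.262 and 0.223 FPKM in the cerulein libraries, against 0.597, 0 and 0 FPKM in the controls. The highest was control library 1, on 8 fragments, and the 0 of control library 2 allowed up to 0.194 FPKM, which is above the lowest cerulein value. The antisense model Gm29682 overlaps Cdh5, and whether fragments were counted by strand is not stated in the sources used here. Esam (chromosome 9, 37528078 to 37538319), an adhesion molecule of endothelial tight junctions, had 0.607, 0.374 and 0.191 FPKM in the cerulein libraries, against 0.816, 0 and 0 FPKM in the controls. Its value in control library 1 rested on 2 fragments, and a 0 in control library 2 allowed up to 1.09 FPKM, so that no difference from that library was detectable at this depth.

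Kdr (75932827 to 75978458) and Flt1 (147561604 to 147726011), both on chromosome 5, encode receptors of VEGF. Kdr carries most of the VEGF signal in endothelial cells and Flt1 binds the ligand with high affinity as a brake on it. Kdr had 0.151, 0.488 and 0.350 FPKM in cerulein libraries 1, 2 and 3, against 0.941, 0.129 and 0 FPKM in control libraries 1, 2 and 3. Again control library 1 was the highest, on 19 fragments, and each cerulein library lay above the remaining controls, although control library 2, on 3 fragments, came close to cerulein library 1. Flt1 had 0.203, 0 and 0.0158 FPKM in the cerulein libraries, against 0.509, 0.0805 and 0 FPKM in the controls. The cerulein libraries thus differed among themselves, with 17, 0 and 2 fragments, and overlapped control libraries 2 and 3.

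Tek (chromosome 4, 94739289 to 94874976) encodes the angiopoietin receptor TIE2, and Tie1 (chromosome 4, 118471191 to 118490061) its partner receptor. Tek had 0.0197, 0.266 and 0.0133 FPKM in cerulein libraries 1, 2 and 3, against 1.03, 0 and 0 FPKM in control libraries 1, 2 and 3. Control library 1 held 15 fragments, cerulein library 2 held 18 of a deeper library, and the other cerulein libraries held 1 each. Tie1 had 0.0805, 0 and 0.0136 FPKM in the cerulein libraries, against 0.643, 0.0630 and 0 FPKM in the controls. Control library 1, with 9 fragments, was 7.99-fold above the highest cerulein library, and the remaining libraries held 0 to 4 fragments and overlapped.

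Eng (chromosome 2, 32646595 to 32682669), which encodes the TGF-beta and BMP co-receptor endoglin, was the highest of the 10 and the most even after cerulein. It had 2.68, 2.27 and 2.49 FPKM in cerulein libraries 1, 2 and 3, against 14.3, 0 and 0 FPKM in control libraries 1, 2 and 3. These levels rested on 103, 112 and 136 fragments after cerulein and on 148 fragments in control library 1. A count of 0 allowed at most 0.251 FPKM in control library 2, so that each cerulein library was at least 9.03-fold above it. At the mean level after cerulein, control libraries 2 and 3 would have held 29.6 and 32.5 fragments of Eng, where they held 0. Eng made up 52.0%, 45.3% and 60.3% of the summed level in the cerulein libraries and 64.2% in control library 1. Of its 4 deposited transcripts 2 had lost their decimal mark, and in control library 1 the digits could also be read as 4.76 FPKM at the least, or as up to 476 FPKM. Only the reading of 14.3 FPKM lay within 0.01 of a whole number of fragments there, and the lowest reading would still exceed every cerulein value and be at least 19.0-fold above control library 2. Fpgs, on the opposite strand, overlaps Eng in the annotation, and so do small RNA models.

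Emcn (chromosome 3, 137341067 to 137432185), a sialomucin of capillary and venous endothelium, had 0 FPKM in all 3 cerulein libraries, against 1.48, 0 and 0 FPKM in control libraries 1, 2 and 3. Its 7 fragments in control library 1 were the only ones in the series, while 3 fragments would have given 0.121 to 0.177 FPKM in a cerulein library. Egfl7 (chromosome 2, 26580014 to 26593120), a secreted regulator of vessel growth, had 0.785, 0.0524 and 0.204 FPKM in the cerulein libraries, against 0.713, 0 and 0 FPKM in the controls. Those rested on 5, 1 and 2 fragments and on 2 fragments in control library 1, so that cerulein library 1 and control library 1 were close to each other and a 0 in control library 2 allowed up to 0.947 FPKM. Egfl7 overlaps Agpat2 on the opposite strand and the gene model Gm20532, which leaves its few fragments uncertain.

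The 10 genes moved together across the libraries. On the log2(FPKM + 1) scale, the Pearson correlation of each gene with the mean of the other 9 over the 6 libraries was between 0.716 for Egfl7 and 0.977 for Cdh5, a description that rests largely on control library 1, the library all of them share. Genes outside the marker lists with the pattern most like that of the 10 were sought among 8684 genes of 1 FPKM or more in some library. The 10 closest were Pla1a, Nfatc4, Igfbp3, Rcor2, Btbd11, Rad54l2, Srebf2, Adcy3, Ace and Ugt1a6a, with correlations of 0.994 to 0.998 over 6 libraries. Igfbp3, for example, had 1.47, 1.46 and 0.786 FPKM in the cerulein libraries, against 9.22, 0 and 0 FPKM in the controls. Ace had 1.97, 1.72 and 1.34 FPKM in the cerulein libraries, against 8.37, 0.0710 and 0 FPKM in the controls. Both were highest in control library 1, at an intermediate level in the cerulein libraries and at or near 0 in the remaining controls. Ugt1a6a shares exons with neighbouring genes, so that its level is uncertain.

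Cerulein was compared with control in a limma fit on log2(FPKM + 1) over the 8764 genes known in every library and at 1 FPKM or more in at least 1 of them. Of these, 786 passed an adjusted p of 0.05 (Benjamini-Hochberg, 8.97%), 451 higher (5.15%) and 335 lower (3.82%) after cerulein. Only 4 of the 10 endothelial genes reached 1 FPKM anywhere, and 3 of these did so in control library 1 with no other library or with 1 other, so the tested genes are not all 10. None of the 4 passed, and none had an unadjusted p under 0.05, against 25.3% of all tested genes. Eng averaged 2.48 ± 0.208 FPKM after cerulein and 4.75 ± 8.23 FPKM in controls (SD, n = 3 each). Its log2 fold change on the log2(FPKM + 1) scale was 0.49 with an SE of 0.82, at a limma adjusted p of 0.753. Its mean FPKM was lower and its mean log2 level higher after cerulein, with 1 control far above the cerulein libraries and 2 controls at 0. Pecam1 had a log2 fold change of 0.44 (SE 0.39), Tek of -0.21 (SE 0.37) and Emcn of -0.44 (SE 0.40). The median of the 4 was 0.11, against 0.08 over all tested genes. With no filter all 10 entered a fit of 13783 genes, of which 367 passed (2.66%) and 20.2% had an unadjusted p under 0.05. Of the 10, again 0 passed and 0 had an unadjusted p under 0.05. With a pseudocount of 0.1 the log2 fold changes of Eng, Pecam1 and Emcn were 2.30, 1.82 and -1.33, and again none passed.

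The comparison turned on control library 1. Without it, 8196 genes were tested and 931 (11.4%) were higher after cerulein. Eng then rose by 1.80 on the log2 scale (SE 0.28), at a limma adjusted p of 0.00224, and was higher in 3 of 3 cerulein libraries than in either control. Pecam1, the other gene still tested, had a log2 fold change of 0.82 with an SE of 0.34, at a limma adjusted p of 0.114. Without control library 1 and with no filter, a fit chosen after the values were seen, 9 of the 10 were tested among 13551 genes, of which 502 (3.7%) were higher. Eng was again the 1 gene that passed (limma adjusted p = 0.0196). With Eng, 4 of the 9 had unadjusted p-values under 0.05 there, against 27.2% of all genes in that fit. The other 3 were Cdh5, Esam and Pecam1, with log2 fold changes of 0.28, 0.46 and 0.82, and limma adjusted p-values of 0.0622, 0.0987 and 0.0813. At the mean level after cerulein, control libraries 2 and 3 would have held only 1.08 and 1.17 fragments of Esam. Their 0 for Esam therefore shows no difference at this depth, whatever its p-value. For Cdh5 these numbers were 3.36 and 3.69, near the 3 fragments that a 0 allows. For Pecam1 control library 2 would have held 9.12. Flt1 and Tek had log2 fold changes of 0.04 and 0.13 in that fit, and Tie1 one of -0.00034. Without control library 2, or without control library 3, the log2 fold change of Eng was -0.17. Apart from Eng, control libraries 2 and 3 would have held 26.5 and 29.1 fragments of the other 9 genes at the mean levels after cerulein, and they held 6 and 0.

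**Figure D3:**
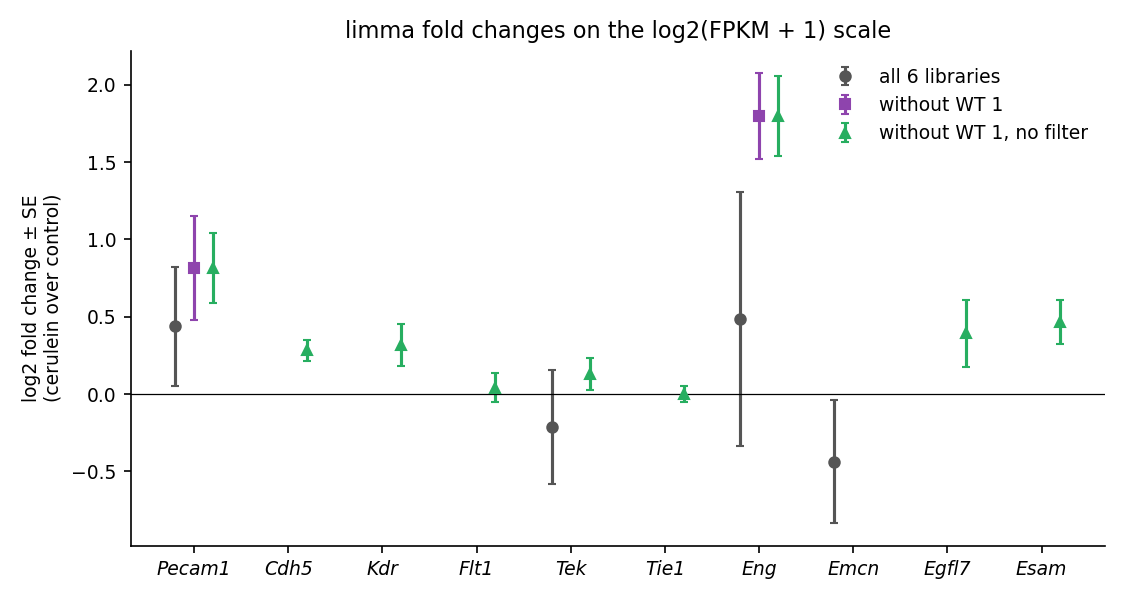
log2 fold change of each gene, cerulein over control, on the log2(FPKM + 1) scale (y axis) with its SE from limma, for all 6 libraries (grey circles), without control library WT 1 (purple squares) and without WT 1 and with no filter on low levels (green triangles). Genes with no marker in a colour were not tested in that fit. Eng stands at 0.49 with all 6 libraries and at 1.80 without WT 1.

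A further comparison set control library 1 against its fellow controls, with no test, since it is 1 library. A gene counted when it had at least 1 FPKM in that library and at least 8-fold the higher of the other 2 controls, taking the lowest possible reading of it and the highest of the others. The rule counted 696 of 8785 genes (7.92%). Only 4 of the 10 endothelial genes could enter it, by reaching 1 FPKM in the library where they were high, and Emcn, Eng, Pecam1 and Tek then counted, from which nothing is read about the list. The same rule found 43 genes (0.568%) for control library 2 and 70 (0.915%) for control library 3, with none of the 10 among them. A control at 0 fulfils the rule at any depth. When the other controls were put at no less than 3 fragments, a setting added after the values were seen, 310 of 8566 genes (3.62%) counted in control library 1, and of the 10 only Eng.

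Other endothelial genes were mixed, although the sum of those with a known level ordered the libraries in the same way. Of 35 listed endothelial identity genes, 32 had a known level in every library. These summed to 11.8, 15.8 and 11.99 FPKM in cerulein libraries 1, 2 and 3, against 40.2, 4.91 and 2.92 FPKM in control libraries 1, 2 and 3. At the lowest possible readings of all 35, the sums were 20.7, 33.6 and 25.1 FPKM after cerulein, against 58.4, 25.5 and 12.8 FPKM in the controls. Control library 2 then lay above cerulein libraries 1 and 3. Ramp2, outside the first sum and named after its values were seen, had at least 8.77 and 6.07 FPKM in control libraries 1 and 2. It had 1.23, 0.447 and 0.152 FPKM in the cerulein libraries and 0 in control library 3. Cd34, a sialomucin of endothelial and stromal progenitors, had 3.07, 1.79 and 1.88 FPKM in the cerulein libraries, against 15.5, 0 and 0 FPKM in the controls. Plvap, which forms the diaphragms of fenestrated endothelium, had 1.5, 0.0686 and 0.0875 FPKM in the cerulein libraries, against 6.62, 0 and 0 FPKM in the controls. Control library 1 was the highest for both genes, which made up much of its sum. It was above every cerulein library for 18 of the 31 genes above 0 in some library. Among genes chosen here after their values were seen, Fli1, Cd93 and S1pr1 were highest in a cerulein library. Sox7 went the other way, with 0.177, 0.381 and 0.290 FPKM in the cerulein libraries, against 1.18, 1.03 and 1.51 FPKM in the controls. Icam2, Cldn5 and Nos3, all chosen here after their values were seen, were at 0 in control library 1 and at 0 to 0.356 FPKM after cerulein. That library held 6.45 fragments per FPKM of a 2000-base transcript, so levels this low are not resolved there. Of 13 tested identity genes 0 passed in either direction, with a median log2 fold change of 0.15, while without control library 1 there were 4 higher of 10 tested. Of 10 genes of activated endothelium, 6 were tested and 0 passed, and without control library 1 there were 2 higher of 5. In that fit 11.4% of all 8196 genes were higher. When the filter was dropped as well, 1 of 31 identity genes and 3 of 8 activated genes were higher, against 3.7% of all 13551 genes. The adhesion molecule Vcam1 had 2.75, 2.29 and 1.70 FPKM in the cerulein libraries, against 3.19, 0.0749 and 0 FPKM in the controls. Among 8 activated genes with a known level, control library 1 was above every cerulein library for 3 and under every one for 2. Thbd, named after its values were seen, made up 12.5 of the 22.6 FPKM of these genes in control library 1. Its digits there could be read as 1.25 to 125 FPKM.

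Ligands and partners of the pathways these receptors serve were read as a list of their own. Of 31 genes of VEGF, angiopoietin, Notch and endoglin signalling, 16 were tested, with a median log2 fold change of -0.26. Of these 2 rose and 1 fell, against 5.15% higher and 3.82% lower among all tested genes. Both that rose encode inhibitors of DNA binding and are known targets of BMP signalling in many cell types. Id1 had 12.1, 22.4 and 12.8 FPKM in cerulein libraries 1, 2 and 3, against 2.58, 0 and 0 FPKM in control libraries 1, 2 and 3, and rose by 3.40 on the log2 scale with an SE of 0.48, at a limma adjusted p of 0.00170. Id3 had 10.2, 11.5 and 8.21 FPKM in the cerulein libraries, against 3.06, 0 and 0.411 FPKM in the controls, and rose by 2.60 with an SE of 0.46, at a limma adjusted p of 0.00622. The groups did not overlap for either gene, and both rose further without control library 1, by 4.01 and 3.19. With no filter Id3 lost its call, at a limma adjusted p of 0.0520. Angpt1, the activating ligand of TIE2 and named after its values were seen, fell by 1.32 on the log2 scale (limma adjusted p = 0.0285), with 0.154, 0.321 and 0.286 FPKM in the cerulein libraries, against 1.25, 3.08 and 2.31 FPKM in the controls. It lost its call with no filter, without any 1 of the cerulein libraries and without control library 2 or 3, at limma adjusted p-values of 0.0661 to 0.137.

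Markers of other cell types were read beside the endothelial genes. Mural cell and pericyte genes, which belong to the vessel wall, summed over 11 genes to 8.41, 3.90 and 8.91 FPKM in cerulein libraries 1, 2 and 3, against 17.5, 1.95 and 0.372 FPKM in control libraries 1, 2 and 3. Pdgfrb, the pericyte receptor for PDGF, had 2.21, 0.608 and 1.92 FPKM in the cerulein libraries, against 7.29, 0.0470 and 0 FPKM in the controls. Cspg4, the pericyte proteoglycan, had 0.330, 0.118 and 0.242 FPKM in the cerulein libraries, against 3.00, 0.188 and 0 FPKM in the controls. Control library 1 was the highest for both. The contractile genes Acta2 and Myh11, named after their values were seen, were at 0 in control libraries 1, 2 and 3 alike. After cerulein Acta2 was at 1.38 FPKM or more in each library, and it stands outside the sum over 11 genes. With Acta2, at the lowest possible readings, the list summed to 10.3, 5.28 and 16.4 FPKM after cerulein. Control library 1 had 17.5 FPKM. Myh11 was at 0 to 0.0579 FPKM after cerulein, too low for its 0 in control library 1 to be read. Of 6 tested mural genes 0 passed, and without control library 1 there were 2 higher of 3, against 11.4% of all genes in that fit. When the filter was dropped as well, 0 of 11 were higher.

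Fibroblast and matrix genes summed over 10 genes to 309, 232 and 337 FPKM in the cerulein libraries, against 292, 7.92 and 2.04 FPKM in the controls. Single genes differed from that sum, since control library 1 was above every cerulein library for 4 of the 10 and under every one for 5. Postn and Fbn1, matrix genes named after their values were seen, had 11.7 to 21.2 and 6.77 to 13.9 FPKM in the cerulein libraries, against 0.964 and 1.30 FPKM in control library 1. Of the 10 tested, 5 rose and 0 fell, against 5.15% and 3.82% of all tested genes, with a median log2 fold change of 2.54. Without control library 1 all 10 were higher, against 11.4% of all genes in that fit. Col1a1, a chain of type I collagen, had 86.6, 58.8 and 101 FPKM in the cerulein libraries, against 47.1, 0.899 and 0.117 FPKM in the controls, and rose by 4.12 on the log2 scale with an SE of 1.05, at a limma adjusted p of 0.0337. Col1a2, the other chain, had a log2 fold change of 3.66 (limma adjusted p = 0.0351). Both lost their call when any library but control library 1 was left out, at limma adjusted p-values of 0.0645 to 0.153. They also lost it with no filter (limma adjusted p = 0.144 and 0.145) and with a pseudocount of 0.1 (limma adjusted p = 0.0627 for both). Col6a2, a chain of type VI collagen, had 17.04, 5.66 and 9.12 FPKM in the cerulein libraries, against 56.9, 0.248 and 0.298 FPKM in the controls. The list numbered 2 or 3 genes higher when any library but control library 1 was left out, against 1.33% to 3.97% of all genes. With no filter 2 of the 10 were higher, against 1.57% of all genes.

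Leukocyte genes ordered the libraries otherwise. Over 10 entries, among which the symbol Itgam stands more than once, they summed to 37.6, 68.2 and 75.5 FPKM in the cerulein libraries. The controls had 13.0, 3.25 and 2.56 FPKM, so that in this sum control library 1 stood above its fellows but below every cerulein library. Of 8 tested, 6 rose and 0 fell, against 5.15% and 3.82% of all tested genes, with a median log2 fold change of 1.93. Without control library 1 there were 6 higher, against 11.4% of all genes in that fit. Without cerulein library 2, cerulein library 3, control library 2 or control library 3 there were 2, 2, 2 and 3. Of all genes 1.51%, 1.33%, 2.31% and 3.97% were higher in those fits. With no filter 2 of 10 leukocyte entries were higher, against 1.57% of all genes. Cd53, a tetraspanin of leukocytes, had 18.1, 22.0 and 25.2 FPKM in the cerulein libraries, against 1.26, 0 and 0.288 FPKM in the controls (log2 fold change 3.98, limma adjusted p = 8.42e-05). Coro1a, a leukocyte actin regulator, had a log2 fold change of 2.91 (limma adjusted p = 0.00274). The part that matrix, mural and leukocyte cells may have in the levels of Eng and Pecam1 was not tested.

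**Figure D4:**
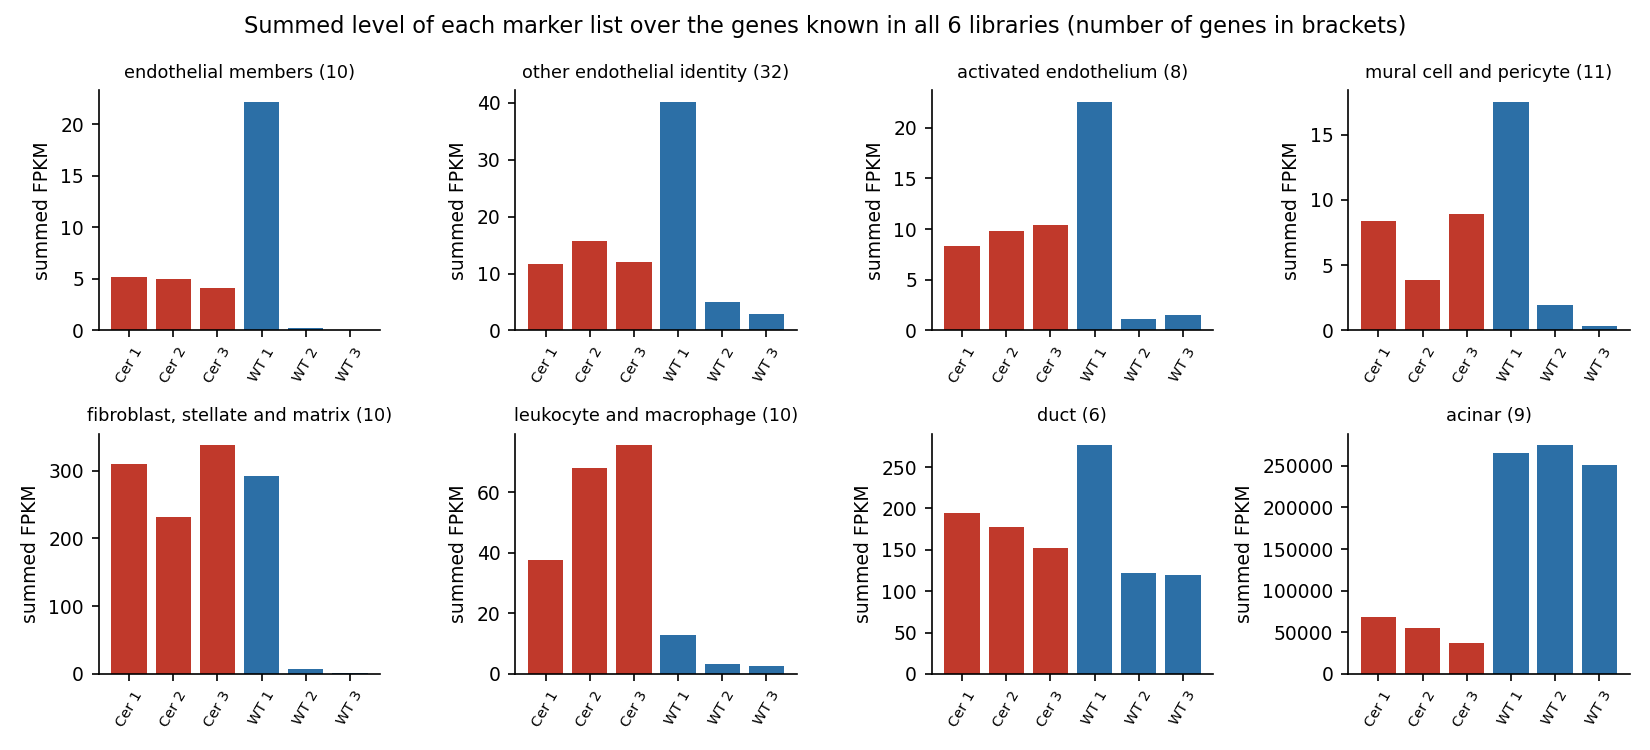
Summed FPKM of 8 marker lists (y axis, its own scale per panel) in cerulein (Cer, red, left) and control (WT, blue, right) libraries, over the genes of each list whose level is known in all 6 libraries (their number in brackets). The leukocyte list holds the symbol Itgam more than once. WT 1 has the tallest bar for the endothelial, activated endothelium, mural and duct lists, lies within the range of the cerulein libraries for the sum of fibroblast and matrix genes, and stands with WT 2 and WT 3 for acinar genes. Of the 22.6 FPKM of WT 1 for activated endothelium, 12.5 came from Thbd. The mural sums are without Acta2.

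Acinar and duct genes were read for the sorted cells themselves. All 9 tested acinar markers fell, with a median log2 fold change of -2.66, against 3.82% of all tested genes. With no filter 5 did so, and 6 without cerulein library 2, against 1.1% and 1.08% of all genes. Pnlip, the pancreatic lipase, fell by 3.28 and Cel, the bile salt lipase, by 3.25 on the log2 scale (limma adjusted p = 0.000171 and 0.00127). The sum of acinar markers in control library 1, 266091 FPKM, lay between those of control libraries 3 and 2, at 250530 and 274611 FPKM. The duct list is described by its 2 keratins only, and these do not give the direction of the list as a whole. Krt19, a ductal keratin, had 104, 101 and 89.8 FPKM in the cerulein libraries, against 7.86, 3.35 and 6.29 FPKM in the controls (log2 fold change 3.92, limma adjusted p = 6.76e-05). Krt7, another, had a log2 fold change of 1.66 (limma adjusted p = 0.00692), which was lost without cerulein library 2 or 3, at limma adjusted p-values of 0.0649 and 0.0637. Of the lists for lymphatic endothelium, blood and islet, 2, 0 and 1 genes were tested and 0 passed in each. Prox1, Lyve1, Pdpn and Ccl21a are named after their values were seen. Prox1, which marks lymphatic endothelium but is also made in the pancreatic epithelium, was above Lyve1 in the controls and in cerulein library 1 but below it in cerulein libraries 2 and 3, and Pdpn and Ccl21a were at 0 in all 6 libraries.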

How the data were processed

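RNA was sequenced from sorted acinar cells, 3 cerulein and 3 control libraries. Reads were handled with fastp, HISAT2, featureCounts and DESeq2 on mm10, per the submitters' processing notes, which give no versions. The authors deposited FPKM per transcript, and which tool wrote them is not stated in the sources used here. The table had passed through a spreadsheet that dropped the decimal mark of many values of 1 or more (18.05% to 21.4% of transcripts in a library), so those values were restored here from whole fragments, GENCODE M21 transcript lengths and the replicates, at a posterior of 0.95. Readings near those of the other libraries of the same group were favoured. The spread within a group may therefore be understated, and p-values of restored genes are not independent of the group labels. Of the 10 genes, only Eng and Pecam1 had lost marks. Deposited values printed with an exponent, which most of the 10 have in some transcript, were taken as 0, also in the highest possible sums. Their exponents are altered too, for of 2334 gene sums holding a value printed with E+00, 89.4% were within 0.01 of whole fragments with it at 0 and 1.54% with it as printed. Of 388 intact values hidden as a check, 323 were placed, 321 of them right. In each case no other transcript of the gene had lost its mark in that library. The check therefore does not cover Eng in control library 1, where 2 transcripts had. The test planned for FPKM was run on restored values, since the deposited ones are not plain FPKM. Fold changes on a log2(FPKM + 1) scale understate low genes. limma 3.58.1 (R 4.3.3) with trend was used, Benjamini-Hochberg adjusted over all genes tested. The other steps ran in Python 3.11.15. Both steps were tested on simulated data. Named are all 10 members, of each other list the 2 called genes with the largest change and any gene 8-fold up in control library 1 among the 3 highest of its list there, and the 10 genes most alike. The members, lists and rules were chosen with earlier results of these data known. Vegfd is listed in the table as Figf, and some genes stand in more than 1 list. Alternatives covered pseudocount, filter, scaling, restoration, trend, replicate block and leaving out each library. A result of the duct list is not reported here.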

Additional observations from a re-analysis of the deposited data

How the results depend on the processing

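Over all genes, 786 passed, against 367 with no filter, 503 with a replicate spread of 1.5, 1656 after scaling by what lies outside the digestive enzymes, and 201 to 1527 when 1 library was left out, the most without control library 1. That scaling moved the median log2 fold change of all genes to 0.46 from 0.08. It moved the share of calls that were higher to 88.6% from 57.4%, while Eng and Pecam1 stayed positive and uncalled. Of 12 other endothelial identity genes 2 passed, both higher, which is near the 16.5% of all 8889 genes that were higher in that fit. Of the endothelial genes 0 passed, and 0 to 1 when 1 library was left out, where the 1 is Eng without control library 1. With that library left out and no filter, 1 passed as well and the log2 fold change of Tek was 0.13, against -0.21. Leaving out 1 library moved that of Eng between -0.17 and 1.80. A pseudocount of 0.1 moved Eng to 2.30 from 0.49, Pecam1 to 1.82 from 0.44, Emcn to -1.33 from -0.44 and the median of the 4 to 0.71 from 0.11, with no call. With a floor of 3 fragments, 1 gene in place of 4 was 8-fold up in control library 1, and at 4-fold or on placed values 4 were. Taking the highest possible readings, the summed levels were 271, 272 and 207 FPKM in cerulein libraries 1, 2 and 3 and 603 FPKM in control library 1, and taking the lowest, that of control library 1 was 12.7 FPKM and still the highest. With a replicate block 962 genes and 0 endothelial genes passed. Libraries of equal number correlated by 0.142, 0.128 and -0.027 in their deviations. With 3 libraries per group this cannot settle whether the numbers pair the samples, and the labels do not say. The cause of these shifts was not tested. With 6.45 to 8.09 fragments per FPKM of a 2000-base transcript in the controls, levels that rest on fewer than 3 fragments are not resolved there.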
